A study of Oryctolagus cuniculus with 3 samples.

Results

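The genes described here code for the proteins of the cytoplasmic ribosome. A gene was a member when its name in the tables was RPL or RPS followed by a digit, without S6 kinase names and without paralogs whose name ends in an L, or when it was RPLP0, RPLP1, RPLP2, RPSA or FAU. Of 20536 gene names, 65 met the letters of this rule. One of them, RPS19BP1, codes for a protein that binds RPS19 and is not part of the ribosome, and it was set apart. The other 64 genes, with 80 coding sequences among 38696, are the members: 25 belong to the 40S subunit and 39 to the 60S subunit. All 64 were measured, which means at least 1 CPM (fragment counts scaled to library size with edgeR's TMM factors) in at least 1 library, as were 12818 genes in all. Of 78 cytoplasmic ribosomal proteins listed, 32 of the 40S and 46 of the 60S subunit and its stalk, 14 had no row under their symbol. RPS27A, RPL7A, RPL17 and RPL36A stood under LOC names, which RefSeq's table for assembly mOryCun1.1 pairs with these symbols, and their values are given apart. The other 10 were not analysed here.

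The study followed RCE1(5T5), a rabbit corneal epithelial cell line, through its differentiation program, with 1 RNA-seq library of total RNA at each of 3 stages. The labels call the cells non-differentiated on day 4, committed on day 6 and terminally differentiated on day 10. In every culture the rabbit cells grew beside mouse 3T3 cells blocked with mitomycin C, which were stripped with EDTA before the RNA was taken. The medium of all 3 cultures was a DMEM and Ham's F12 mixture with fetal calf serum, insulin, transferrin, hydrocortisone, triiodothyronine, cholera toxin, adenine and epidermal growth factor. As there was 1 library a stage, no difference has a replicate check, no test across samples was possible, and stage, day and library cannot be told apart. Bracketed ranges are exact 95% Clopper-Pearson intervals, and they cover counting error only.

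A ribosome is built from a small 40S subunit, which reads the messenger RNA, and a large 60S subunit, which joins the amino acids. Each subunit holds ribosomal RNA and a set of proteins that are mostly present in 1 copy each, so the proteins are needed in matched amounts. The messenger RNAs of ribosomal proteins start with a run of pyrimidines, the TOP motif, through which mTORC1 and LARP1 set their translation and stability. Making ribosomes also takes RNA polymerase I, which transcribes the ribosomal RNA, and a large set of processing factors in the nucleolus.

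The day 4, 6 and 10 libraries held 10171633, 12582648 and 10899544 fragments after rounding, and each member had at least 1853 fragments in every library. Of 7 corneal epithelium markers all 7 were measured: the corneal keratin KRT3 was at 150, 954 and 2018 CPM on days 4, 6 and 10, and KRT12 at 0, 19.3 and 121 CPM. The list did not move as 1: KRT5, a basal keratin that makes up most of its sum, was at 15650, 23374 and 13552 CPM, CLU was at 408, 408 and 275, and TP63 at 55.8, 162 and 120. The summed level was 16321, 25149 and 16984 CPM, with 3 of the 7 lower on day 10 than on day 6 and 2 of the 7 lower than on day 4. Of 10 fibroblast or feeder markers 9 were measured and LUM was listed at 0 in all libraries. Their summed level was 3903 CPM on day 4, 2412 on day 6 and 1348 on day 10, so it was highest in the library where the members were lowest. The markers did not all fall: on day 10 against day 4, 8 of the 9 (88.9%) were 2-fold lower, beside 15.8% of all measured genes. At least 2-fold higher was 1 (11.1%), beside 17.1% of all measured genes. From day 6 to day 10, 2 were above 0 and 7 below. The part of these markers in the results below was not tested. White blood cell markers summed to 1.47 to 1.82 CPM, with TYROBP, FCER1G and CD3E at 0, and endothelium markers to 0.565 to 2.39 CPM, with PECAM1 at 0.

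Ribosomal protein messages took a larger part of the counted RNA on day 6 than on day 4, and a slightly larger part again on day 10. The 64 genes took 7.22% [7.21 to 7.24] of all fragments on day 4, 10.63% [10.61 to 10.64] on day 6 and 11.52% [11.51 to 11.54] on day 10. Their CPM summed to 67431, 110889 and 118309. Day 4 stood apart from the other libraries, and the step from day 6 to day 10 was the smaller one. By the deposited TPM, a level per coding length, the shares were 12.8%, 16.7% and 17.8%. These are shares of the RNA in a library: more ribosomal protein RNA per cell, less of other RNA per cell and more cells that hold much of it cannot be told apart in bulk samples.

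The subunits kept nearly the same balance in the 3 libraries. The 25 genes of the 40S subunit gave 39.4% of the members' CPM on day 4, 40.5% on day 6 and 40.1% on day 10, with sums of 26579, 44942 and 47463 CPM. The 39 genes of the 60S subunit summed to 40852, 65947 and 70846 CPM. Per coding length, the 40S share of the members' TPM was 42.6%, 43.8% and 42.9%. The median log2 difference between day 6 and day 4 was 0.75 for 40S genes and 0.74 for 60S genes.

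Within a library the members were among the most abundant messages. Of the 64, 56 were among the top 200 genes by TPM on day 4, 56 on day 6 and 58 on day 10. Their median TPM was 1886, 2475 and 2669 on the 3 days. RPLP1, an acidic protein of the P stalk that recruits elongation factors, had the highest level, with 5142, 7771 and 8084 TPM. Next by mean TPM were RPL27A at 5735, RPS20 at 4402, RPS24 at 4305 and RPS18 at 4074. RPL38, a small 60S protein known from mouse skeletal patterning mutants, had the lowest level at 458, 842 and 537 TPM. The other low genes were RPL10A with a mean of 805 TPM, RPL22 with 891, RPL32 with 1102 and RPL39 with 1181. The highest level was 11.2 times the lowest on day 4, 9.23 times on day 6 and 15.1 times on day 10.

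**Figure D1:**
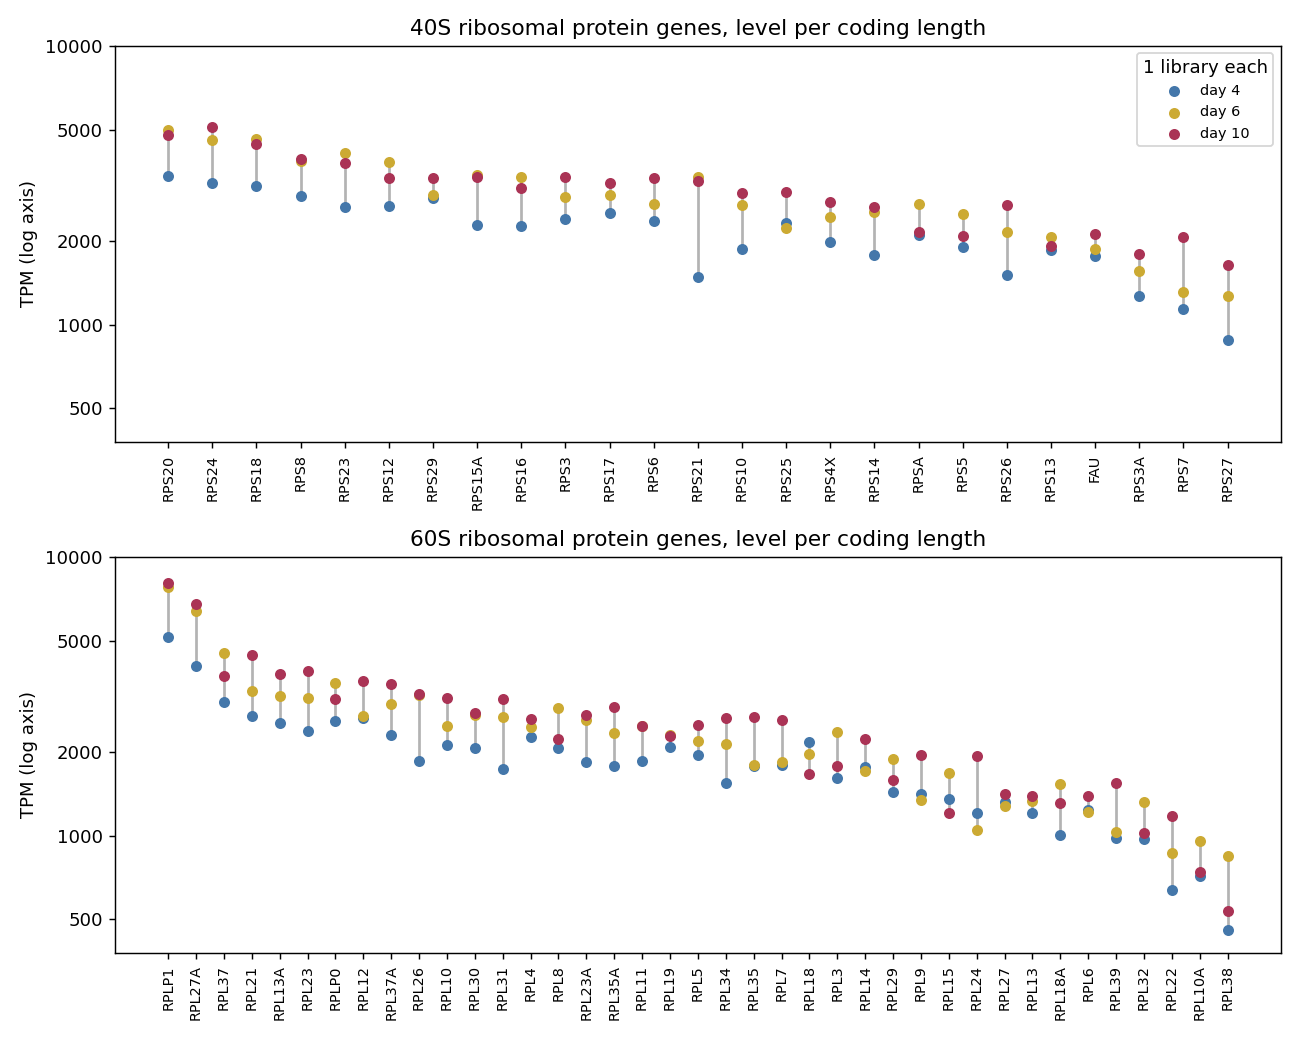
Level per coding length (TPM, log axis) of each ribosomal protein gene in the 3 libraries, 40S genes above and 60S genes below, ordered by mean TPM; each point is 1 library. RPLP1 and RPL27A stand highest and RPL38 lowest, and the day 4 point is the lowest of most columns.

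The order of the genes was largely kept from stage to stage. Across the 64 genes, Spearman's rho between the TPM of day 4 and day 6 was 0.89, between day 6 and day 10 0.91, and between day 4 and day 10 0.88, as a description in which all libraries share the same coding models. The SD of log2 TPM across the genes was 0.62, 0.68 and 0.70. Levels depend on the deposited coding models. In 11 members several coding sequences were summed, with 7 for RPS24. The RPL38 total joins models of 786 and 288 bases, 1 of the RPL18 models has 67 bases, and 1 of the RPL39 models is listed at 0 in every library.

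From day 4 to day 6, all 64 genes had a higher CPM, from 1.12-fold for RPL24 to 2.90-fold for RPS21. The median difference of log2(CPM + 1) was 0.75, with a range of 0.17 to 1.53 and quartiles of 0.52 and 0.88. Over all 12818 measured genes the median was 0.00 and the quartiles were -0.42 and 0.45, and 6370 genes were above 0. With the deposited TPM, whose values shift the median of all genes by -0.30, 57 of the 64 members were above 0, and RPL6, RPL9, RPL14, RPL18, RPL24, RPL27 and RPS25 lay between -0.20 and -0.02. At least 2-fold higher were 5 members, or 7.81%, beside a background of 8.06% of all measured genes. With library totals alone 2 passed, with TPM 1 and with differences centred on coding length 2. None was 2-fold lower, beside 6.73%. At least 1.5-fold higher were 42 members, or 65.6%, beside a background of 19.6%, and none was 1.5-fold lower, beside 18.0%. The members' share at 2-fold was near the background, while their share at 1.5-fold was above it.

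**Figure D2:**
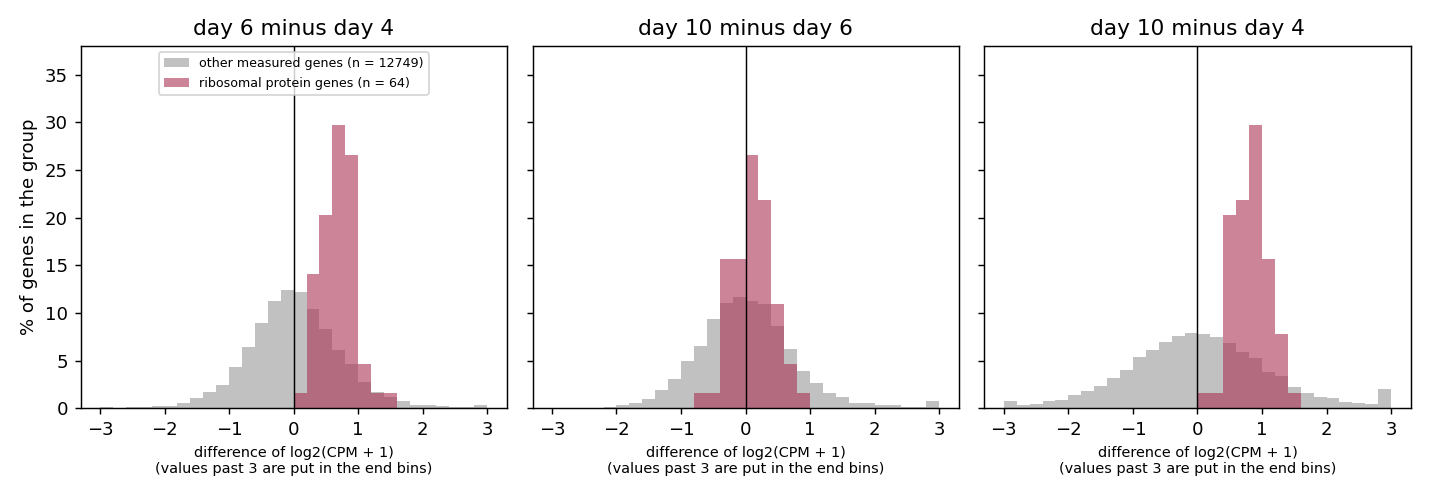
Share of genes (%) by difference of log2(CPM + 1), for the 64 ribosomal protein genes and 12749 other measured genes in each comparison; values past 3 are put in the end bins. The ribosomal protein genes lie above 0 in both comparisons with day 4 and on both sides of 0 between day 6 and day 10.

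RPS21, a small protein of the 40S subunit, had the largest difference. It was at 313 CPM on day 4, 909 on day 6 and 879 on day 10, and rose 2.90-fold [2.79 to 3.01] by day 6. Day 4 was the low library, and days 6 and 10 were close. RPL38 was at 256, 605 and 390 CPM and rose 2.37-fold [2.26 to 2.47]. Its day 10 value lay between the other 2. RPL26, a protein at the rim of the exit tunnel, was at 793, 1747 and 1748 CPM and rose 2.20-fold [2.15 to 2.26]. RPL27A, a 60S protein, was at 1996, 4115 and 4331 CPM and rose 2.06-fold [2.03 to 2.09]. RPS23, which lies at the decoding centre of the 40S subunit, was at 1140, 2302 and 2128 CPM and rose 2.02-fold [1.98 to 2.06]. RPL31, at the tunnel exit, was just under the threshold at 1.99-fold [1.93 to 2.04], with 651, 1293 and 1520 CPM. The calls of RPL26, RPL27A and RPS23 did not hold with library totals alone, TPM or centring on length, and that of RPL38 did not hold with TPM, while RPS21 passed under these 3. In RPL26, RPL27A and RPS23, as in RPS21, day 6 and day 10 lay close together and day 4 apart.

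The smallest differences at this step were those of 60S proteins and RPS25. RPL24, which joins the 60S subunit late, in the cytoplasm, was at 606 CPM on day 4 and 679 on day 6, 1.12-fold [1.09 to 1.16]. RPL9, near the base of the stalk, was at 848 and 1030 CPM, 1.21-fold [1.18 to 1.25]. RPL18 was at 502 and 608 CPM, also 1.21-fold [1.17 to 1.25]. These 3 genes had the day 4 level most nearly kept on day 6. RPS25, known for its part in initiation at internal ribosome entry sites, was at 889 and 1100 CPM, 1.24-fold [1.21 to 1.27]. RPL27 was at 547 and 679 CPM, 1.24-fold [1.20 to 1.29], and RPL14 at 1236 and 1561 CPM, 1.26-fold. No member's counting interval at this step reached 1, but none of these 6 passed the 1.5-fold size.

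**Figure D3:**
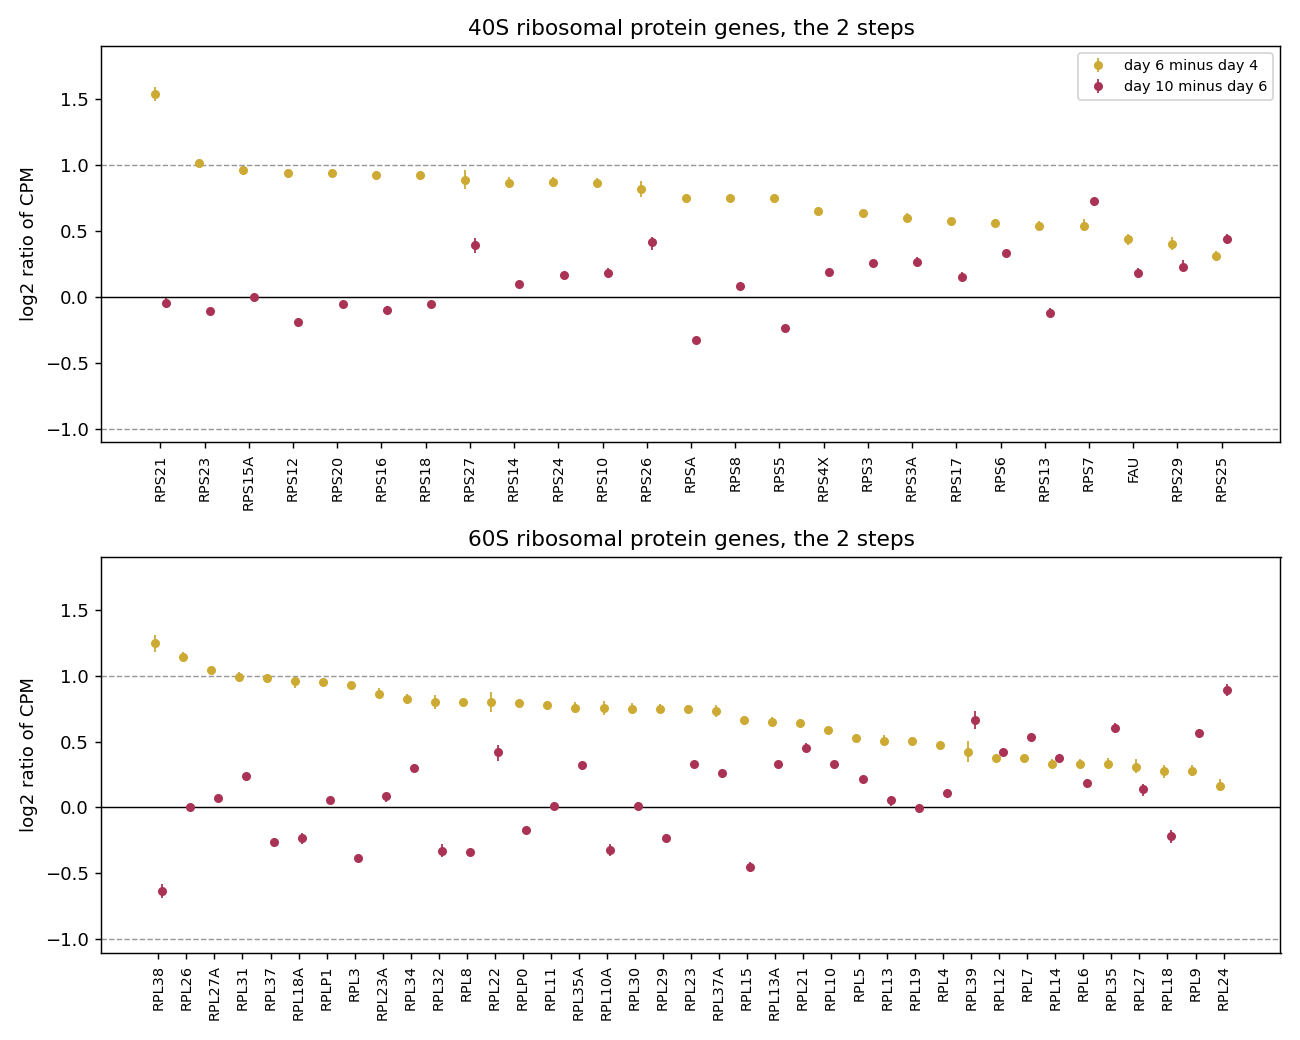
Log2 ratio of CPM for each ribosomal protein gene, day 6 over day 4 and day 10 over day 6, ordered by the first; bars are 95% counting intervals and dashed lines mark 2-fold. The first step is above 0 for every gene and the second lies on both sides of 0.

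From day 6 to day 10 the members moved little as a set and in both directions. The median difference was 0.12, with a range of -0.63 to 0.89, beside -0.01 for all measured genes. Above 0 were 42 members and below 0 were 22, with 41 to 44 above 0 under the other scalings. The counting interval of the fold lay above 1 for 39 members, below 1 for 20 and held 1 for 5. None of the 64 was 2-fold higher or lower, beside backgrounds of 8.25% and 7.1%. At 1.5-fold, 4 members, or 6.25%, were higher, beside a background of 19.1%, and 1, or 1.56%, was lower, beside 19.2%. Both shares were under the background.

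The 4 genes past 1.5-fold upward were 3 of the 60S subunit and RPS7. RPL24 went from 679 CPM on day 6 to 1260 on day 10, 1.85-fold [1.80 to 1.91], after the smallest of the first steps. RPS7, which is known to bind MDM2, was at 669, 973 and 1601 CPM on days 4, 6 and 10, 1.65-fold [1.61 to 1.68] for the second step. Its day 10 value was the highest and its 3 values were spread out. RPL39, a very small protein that lines the exit tunnel, was at 170, 228 and 361 CPM, 1.58-fold [1.51 to 1.66]. RPL35, at the tunnel rim where nascent chain factors dock, was at 668, 846 and 1286 CPM, 1.52-fold [1.48 to 1.56]. RPL9 and RPL7 followed at 1.48-fold and 1.45-fold, with 1522 and 2516 CPM on day 10.

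RPL38 was the member past 1.5-fold downward. It went from 605 to 390 CPM, 0.645-fold [0.621 to 0.670], and so held the largest decrease of this step after the second largest increase of the step before. The next lowest folds did not pass 1.5-fold. RPL15 was at 773, 1220 and 892 CPM, 0.731-fold [0.712 to 0.750] from day 6 to day 10. RPL3, which reaches the peptidyl transferase centre, was at 1979, 3758 and 2887 CPM, 0.768-fold [0.757 to 0.779]. RPL8, another protein close to that centre, was at 1543, 2686 and 2124 CPM, 0.791-fold [0.777 to 0.804]. RPSA, the 40S protein also known as the laminin receptor precursor, was at 1774, 2983 and 2376 CPM, 0.797-fold [0.784 to 0.810]. RPL32 had the same fold, with 386, 671 and 535 CPM. In each of these 5 genes day 6 was the highest library and day 10 lay above day 4 by CPM, although by TPM RPL15 was lower on day 10 than on day 4.

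Over both steps, by CPM, all 64 members were lowest on day 4, 42 were highest on day 10 and 22 were highest on day 6. The median difference between day 10 and day 4 was 0.84, with a range of 0.06 to 1.49, beside 0.01 for all measured genes, and all 64 were above 0. With library totals alone as the scale RPL18 was at -0.08, and with TPM RPL18 was at -0.39 and RPL15 at -0.17. At least 2-fold higher were 16 members, or 25%, beside a background of 17.1%, and none was 2-fold lower, beside 15.8%. At 1.5-fold the counts were 50 members, or 78.1%, beside a background of 29.0%, and none lower, beside 27.6%. The count at 2-fold depends on the scale: with library totals alone 7 members passed, and with TPM 1 did, RPS21.

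The largest differences over the whole course were shared by both subunits. RPS21 rose 2.81-fold [2.70 to 2.92] from day 4 to day 10. RPS27, a zinc finger protein of the 40S subunit, was at 227, 419 and 551 CPM and rose 2.43-fold [2.31 to 2.54]. RPS7 rose 2.39-fold [2.33 to 2.46]. RPS26, at the exit of the mRNA channel, was at 288, 508 and 674 CPM and rose 2.34-fold [2.24 to 2.44]. RPL31 rose 2.34-fold [2.27 to 2.40]. RPL22, a 60S protein that is dispensable in most cells and known for its part in T cell development, was at 205, 357 and 477 CPM and rose 2.32-fold [2.21 to 2.44]. RPS27, RPS26 and RPL22 were higher after each of the steps, while RPS21 was no higher on day 10 than on day 6. The other 10 past 2-fold were RPL26, RPL34, RPL27A, RPL21, RPL39, RPL23, RPL35A, RPL24, RPS10 and RPS24, with folds of 2.06 to 2.20. RPLP1 lay just outside at a rounded 2.00-fold [1.96 to 2.03].

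The smallest differences over the course belonged mostly to genes whose second step was downward. RPL18 was at 502, 608 and 523 CPM, 1.04-fold [1.00 to 1.08] between day 4 and day 10. It is the 1 member whose lower bound rounded to 1.00. Day 4 over day 10 was 0.961-fold [0.926 to 0.998], so the interval lay just clear of 1. RPL15 was 1.15-fold [1.12 to 1.19], RPS13 1.33-fold [1.30 to 1.37] with 924, 1342 and 1232 CPM, and RPSA 1.34-fold [1.32 to 1.37]. RPL10A was 1.35-fold [1.30 to 1.40] with 472, 798 and 638 CPM. RPL27 was 1.37-fold with a day 10 level of 746 CPM.

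By role in the ribosome, the members kept to the common direction. Of the P stalk, RPLP0 was at 2460, 4250 and 3772 CPM and RPLP1 at 2100, 4042 and 4190. RPLP0 was 1.73-fold [1.70 to 1.75] and RPLP1 1.93-fold [1.89 to 1.96] from day 4 to day 6, so both passed 1.5-fold. Of the pair that binds 5S ribosomal RNA and can hold MDM2 when free, RPL5 was at 1747, 2514 and 2925 CPM and RPL11 at 1031, 1766 and 1792. RPL5 was 1.44-fold and RPL11 1.71-fold at the first step, and over the course they were close, at 1.67-fold and 1.74-fold. FAU, made as a fusion with a ubiquitin-like protein, was at 749, 1010 and 1138 CPM. RPS27A, the ubiquitin fusion that stood under a LOC name, was at 1303, 2134 and 2467 CPM.

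Of 8 genes at the exit tunnel and its rim, 4 were 2-fold higher on day 10 than on day 4, with a median difference of 1.01. RPL4, which forms the constriction of the tunnel, was the most abundant of them, with 2923, 4066 and 4397 CPM, and was 1.5-fold [1.48 to 1.53] over the course. RPL17 stood under a LOC name with 1266, 2356 and 2916 CPM. At 2.3-fold it counts among these 4, although it lies outside the 64 members. Of 7 proteins that join the subunits late, 3 were 2-fold higher, with a median of 1.00. Of 10 genes listed for Diamond-Blackfan anaemia, an inherited failure of red cell production, 9 were measured. Of these, 6 were 2-fold higher, with a median of 1.04, namely RPL26, RPL35A, RPS7, RPS10, RPS24 and RPS26. That list holds only some of the genes reported in the disease, and RPS19 had no row under its symbol. It therefore does not show whether disease genes differ from other members. The lists overlap and are short. In this comparison 25% of the 64 members and 17.1% of all measured genes passed 2-fold upward. These counts rest on the scale: with library totals alone they were 3 of 8, 1 of 7 and 3 of 9, and with TPM none passed in any of the 3 lists. The other proteins under LOC names had the members' pattern, with RPL7A at 1089, 2194 and 2027 CPM and RPL36A at 721, 1254 and 1142. RPS19BP1, which met the letters of the rule only, was at 34.1, 21.4 and 29.2 CPM and was lowest on day 6.

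RACK1, a 40S protein and signalling scaffold whose name lies outside the rule, was at 3171, 5261 and 4799 CPM. Paralogs can replace a ribosomal protein in some tissues. Of 7 measured, 6 were above 0 in each comparison with day 4, with medians of 0.57 on day 6 and 0.42 on day 10. With TPM 4 and 3 of the 7 were above 0. RPL22L1 was at 136, 146 and 170 CPM, so its share of the TPM of RPL22L1 and RPL22 together was 36.5%, 26.6% and 22.9%. RPS27L was at 63.9, 74.7 and 66.5 CPM and gave 22.3%, 15.4% and 10.8% of its pair with RPS27. In both pairs the paralog's own level moved less than that of the ribosomal protein. RPL7L1, a nucleolar factor of ribosome assembly, was at 46.3, 27.0 and 12.1 CPM and fell to 0.261-fold [0.213 to 0.317] by day 10, opposite to RPL7. RPL3L and RPL10L held a nearly constant share of their pairs, at 17.6% to 17.9% and 21.8% to 22.0%. The paralogs' values are uncertain, since fragments that fit both copies may have gone to either in the authors' counting.

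The members are short genes, and among them the differences were larger at shorter lengths. Coding lengths of the members ran from 156 to 1278 bases with a median of 473, beside 1326 for other measured genes, and 61 of 64 fell in the 3 shortest deciles of length. In the shortest decile, of 55 to 471 bases, the other genes had a median difference of 0.17 between day 6 and day 4 and the 32 members 0.82. Between day 10 and day 4 the medians there were 0.06 and 0.95. Among the members, Spearman's rho between length and difference was -0.24 for the first step, -0.23 for the second and -0.48 for the whole course (n = 64). Among the other 12749 genes it was -0.12, 0.08 and -0.02, as descriptions across genes that share libraries. The part of length in the members' differences was not tested; with each difference taken from the median of its length decile, the members' medians were 0.60 at the first step, 0.20 at the second and 0.78 over the course.

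**Figure D4:**
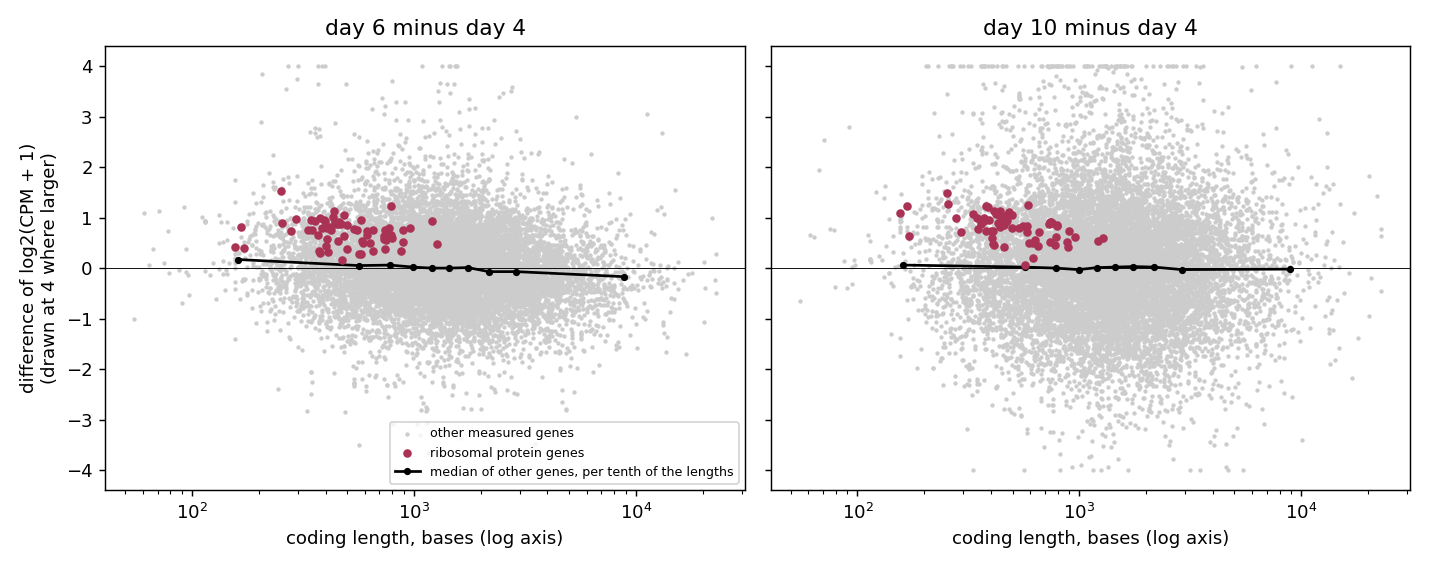
Difference of log2(CPM + 1) against coding length in bases (log axis) for ribosomal protein genes and other measured genes; the black line joins the medians of the other genes per decile of length. The members lie at short lengths and above that line.

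Other genes of at least the members' abundance had a lower median and a wider spread. Of other measured genes, 592 had a mean CPM at or above the lowest of the members, 253. Their median difference was 0.16 between day 6 and day 4, -0.10 between day 10 and day 6 and 0.07 between day 10 and day 4. Among them 28.7% were 1.5-fold higher on day 6 than on day 4, beside 65.6% of the members, and 9.63% were 2-fold higher, beside 7.81%. In the same comparison 3.21% of them were 2-fold lower, beside none of the members, and their differences ran from -2.33 to 4.46.

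Other genes of the TOP class had a smaller difference and went both ways. Of 17 measured, 12 were above 0 on day 6 against day 4 (median 0.35), 10 with library totals alone and 8 with TPM. EEF1A1, the elongation factor that brings transfer RNA, was at 10379, 15241 and 16074 CPM. TPT1, a growth-related TOP protein, was at 1422, 2135 and 3228 CPM and rose 2.27-fold [2.23 to 2.31] by day 10, and EIF3E, an initiation factor subunit, rose 2.09-fold [2.02 to 2.16]. PFDN5, a subunit of the prefoldin chaperone, rose 2.08-fold [1.95 to 2.22] by day 6, with 120, 250 and 171 CPM. The nucleolar chaperone NPM1 fell instead, from 3918 to 1917 CPM by day 10, 0.489-fold [0.481 to 0.498], and EIF3A, another initiation factor subunit, from 641 to 317 CPM, 0.495-fold [0.475 to 0.516]. By day 10, 2 of the 17 were 2-fold higher and 2 lower, against 1 and 3 with library totals alone and 0 and 3 with TPM. Both shares were 11.8%, beside backgrounds of 17.1% and 15.8%. A list of 17 is too short to set these shares apart from the backgrounds.

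Of 11 measured genes of the mTORC1 pathway and TOP regulation, none was 2-fold higher in any comparison. The backgrounds were 8.06% on day 6 against day 4, 8.25% on day 10 against day 6 and 17.1% on day 10 against day 4. A list of 11 is too short to set a count of none apart from these shares. LARP1, which binds the TOP motif and represses its translation, was at 265, 172 and 99.4 CPM and fell to 0.375-fold [0.350 to 0.403] by day 10. EIF4EBP1, a repressor of translation that mTORC1 inactivates, was at 59.7, 68.7 and 22.9 CPM and fell to 0.333-fold [0.288 to 0.385] from day 6 to day 10. MTOR itself was at 93.5, 112 and 96.8 CPM. Of 6 measured candidate activators of ribosomal protein genes, MYC was at 90.2, 47.3 and 26.4 CPM and was the 1 past 2-fold, downward by day 10; that is 16.7%, near the background of 15.8%. Of the mTORC1 and TOP regulation list 2 genes, or 18.2%, were 2-fold lower by day 10, also near it.

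Genes that make and process ribosomal RNA moved opposite to the members. Of 26 measured, 16 fell at least 2-fold from day 4 to day 6 and 23 by day 10, none rose, and the medians were -1.27 and -2.07. These are 61.5% and 88.5%, beside backgrounds of 6.73% and 15.8%. Upward the backgrounds were 8.06% and 17.1%. RRS1, needed for 60S assembly, was at 46.3, 9.70 and 2.54 CPM, 4.78-fold [3.90 to 5.89] lower on day 6 than on day 4. POLR1A, the large subunit of RNA polymerase I, was at 117, 33.7 and 12.2 CPM, and fibrillarin, FBL, at 273, 205 and 66.3 CPM. The 3 that did not fall 2-fold by day 10 were POLR1D, at 74.1, 77.5 and 89.6 CPM, TAF1B at 7.71, 6.80 and 11.3, and TAF1D at 104, 104 and 158. They were named after their values were seen.

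Chaperones of ribosomal proteins and factors of subunit maturation went the same way as that group. Of 19 measured, 6 (31.6%) fell 2-fold by day 6 and 12 (63.2%) by day 10, none rose, and the medians were -0.82 and -1.18. The backgrounds were 6.73% and 15.8% downward, and 8.06% and 17.1% upward. BYSL, needed for 40S maturation, was at 37.0, 8.71 and 3.20 CPM, 11.5-fold [8.13 to 16.9] lower on day 10. GRWD1, a chaperone of RPL3, was at 93.2, 36.6 and 13.3 CPM, 7.02-fold [5.88 to 8.43] lower. SBDS, which releases a factor that keeps new 60S subunits from joining, was at 114, 115 and 143 CPM. The proteins of the mitochondrial ribosome, which are made in the cytoplasm too, had medians below 0: -0.18 on day 6 and -0.66 on day 10 against day 4. Of 71 measured, 5, or 7.04%, fell 2-fold by day 6, near the background of 6.73%, and 25, or 35.2%, by day 10, beside 15.8%. None rose, beside 8.06% and 17.1%. MRPS27 was at 44.9, 16.3 and 6.69 CPM and MRPL46 at 19.3, 6.39 and 2.64. For these 3 groups the medians of both comparisons with day 4 were below 0 under every scaling used.

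**Figure D5:**
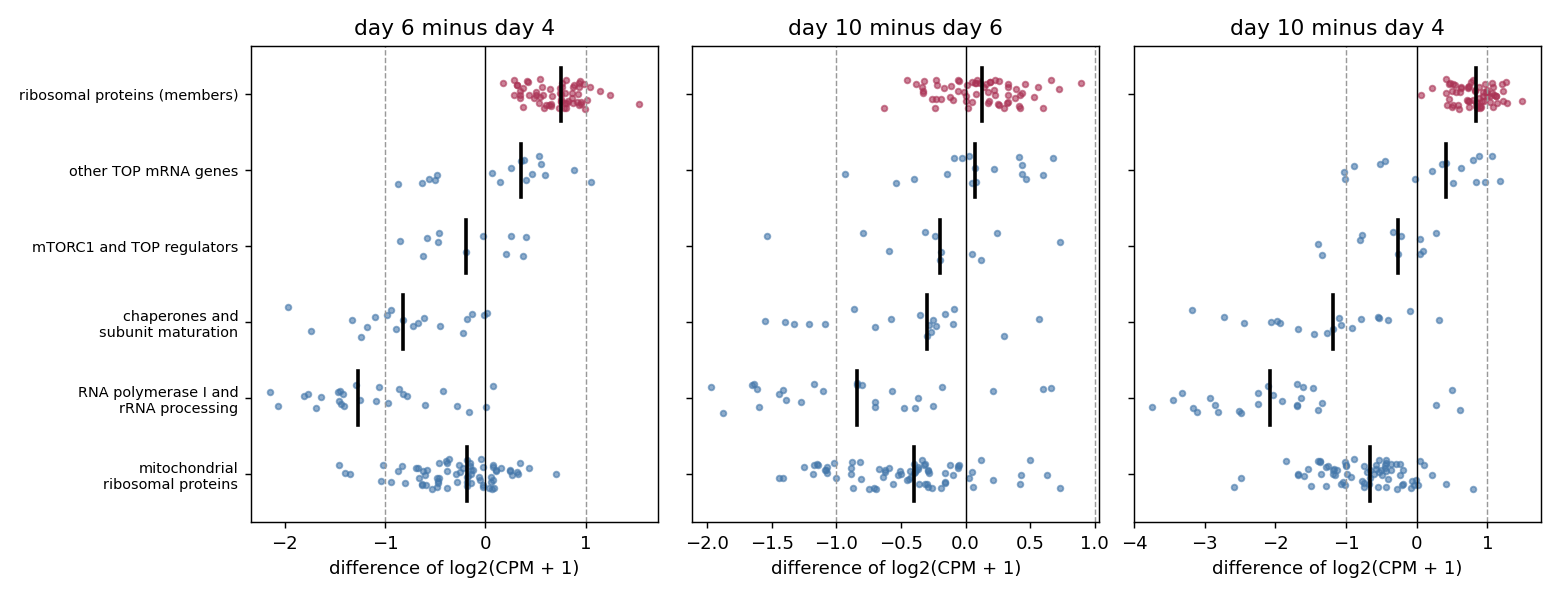
Difference of log2(CPM + 1) for each measured gene of 6 groups in the 3 comparisons; thick bars are medians and dashed lines mark 2-fold. Against day 4, the ribosomal protein genes lie above 0, the ribosomal RNA and maturation groups mostly below, and mitochondrial ribosomal proteins mostly below by a smaller amount.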

How the data were processed

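Each deposited table lists coding sequences of 1 library, on build OryCun2.0 according to the submitters' processing notes. Which aligner and counter made them, and whether strand was used, is "not given in the sources used here". The deposited fragment and read counts are expected counts before normalization. Beside them, per the file headers, stand a transcript count, which is a coverage signal, and the authors' FPKM, RPKM and TPM. Where a gene had 2 coding sequences of equal counts on day 4, 47.4% of 1870 values ended in 0.5, so shared fragments look split and not counted again; 18 members have whole counts throughout. Fragment counts were summed per gene and rounded, since whole counts had been assumed, and scaled with TMM factors of 1.071, 0.958 and 0.974 (edgeR 4.0.16, R 4.3.3). Differences are of log2(CPM + 1), which understates changes of low genes. "Rose" and "fell" are used of genes from 2-fold on, with 1.5-fold as a second size. Folds are ratios of CPM. A count of 0 allows up to 3 fragments, 0.249 to 0.283 CPM. PCR copies are not independent molecules. Coding lengths were computed from read counts and coverage at 75 bases a read.

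Alternatives were library totals alone, DESeq2 1.42.0 size factors, TMM without members, TPM, other pseudocounts and minimums, the highest coding sequence, read counts and centring on length. The members and lists were chosen with earlier results of these data known. Named are the 6 largest and 6 smallest differences of each comparison, the 5 highest and 5 lowest levels, RPLP0, RPLP1, RPL5, RPL11, FAU, RPS27A, members past 2-fold, and up to 2 rises and 2 falls of each other list; further names, such as KRT3, EEF1A1, MTOR, FBL, SBDS and the paralogs, were added after their values were seen. No other organism's reads were separated. Sequences are not shown.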

Additional observations from a re-analysis of the deposited data

How the results depend on the processing

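No median of the 64 genes changed sign under any alternative. With library totals alone, 2 members were 2-fold higher on day 6 than on day 4 and 7 on day 10, and the medians were 0.59 and 0.70, with the median of all genes at -0.14 and -0.11. With TPM, 1 and 1 passed, the medians were 0.39 and 0.46, all genes stood at -0.30 and -0.31, and the shares were 12.8%, 16.7% and 17.8%. Taken from the median of all genes, the members' medians stayed between 0.60 and 0.76 for the first step, 0.12 and 0.20 for the second and 0.77 and 0.85 over the course in 14 settings. Settings that change only the scale of a library shift nearly all genes alike. For them the narrow range was largely fixed in advance, and it is no measure of stability. With differences centred on length, 2 passed at the first step and the medians were 0.60, 0.20 and 0.78. With read counts 3 passed at the first step and the shares were 7.07%, 10.3% and 11.2%. The highest coding sequence alone gave shares of 8.16%, 11.7% and 12.9%. At 1.5-fold the counts were 42, 5 and 50. Of settings chosen after seeing the data, the addition of the 4 genes under LOC names gave shares of 7.69%, 11.4% and 12.4%, and the 17 members of 1 coding sequence and whole counts gave 1 and 2 past 2-fold against day 4 and shares of 1.86%, 2.65% and 2.83%, as fewer genes were summed. For the other alternatives the cause was not tested. Over single members, 2072 values stayed within the counting interval and 475 moved beyond it. Settings that changed only the minimum or the set of members leave a member's own difference as it was. Part of the 2072 was therefore fixed in advance, and the tally is no measure of stability. No paired analysis was possible because each stage has 1 library, and no library could be left out for the same reason.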

Other observations

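Genes that sense stalled ribosomes are described here as values only. Of 8 measured genes of ribosome collision and rescue, 1 fell 2-fold by day 10: GCN1, which senses collided ribosomes, was at 242, 131 and 70.5 CPM on days 4, 6 and 10. That is 12.5%, beside the 15.8% of all measured genes that were 2-fold lower on day 10. A list of 8 is too short to set these shares apart. ABCE1, which splits ribosomes for reuse, was at 392, 226 and 219 CPM, and NEMF, which acts on the stalled 60S subunit, at 40.9, 34.7 and 61.8. MDM2, the ubiquitin ligase that free RPL5 and RPL11 can hold, was at 459, 309 and 229 CPM. CDKN1A, a cell cycle inhibitor, was at 102, 76.7 and 167 CPM, and it rose 2.18-fold from day 6 to day 10. It was 1 of 4 genes listed for the p53 arm of the 5S particle, or 25%, beside a background of 8.25%. A list of 4 is too short to set these shares apart. The other 3 were lower on day 10 than on day 6, and all 4 were lower on day 6 than on day 4.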
